A study of Mus musculus with 15 samples.

Results

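The nuclear-encoded subunits of the mitochondrial respiratory chain and ATP synthase were followed across 15 RNA-seq libraries of mouse splenic B cells. They were taken by symbol, as every gene named Ndufa, Ndufb, Ndufc, Ndufs or Ndufv with a number, Sdha to Sdhd, Uqcr, Cox4 to Cox8 or Atp5, with symbols ending in -ps left out. This gave 89 of the 54838 gene IDs in the count table. Of the 89, 35 belong to complex I, 4 to complex II, 8 to complex III, 20 to complex IV and 17 to complex V, 4 are annotated as processed pseudogenes (Cox6c2, Ndufa11b, Ndufb4c and Ndufs6b), and Atp5s, also known as a coupling factor, is not a subunit of the enzyme. The genes lie on 19 chromosomes. 4 IDs had no count in any library (Cox7b2, Cox8b, Cox8c and a second ID named Atp5o), and 84 of the 89 passed the filter on low counts and were tested.

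The mice were wild-type males, 3 months old, immunised with sheep red blood cells, and spleens were taken on day 9. The 5 groups, with 3 libraries each lettered A, B and C, were naive B cells activated for 5 days in culture by an anti-CD40 antibody, by CpG DNA or by lipopolysaccharide (LPS), sorted germinal centre (GC) B cells, and sorted naive B cells. Anti-CD40 was used at 5 µg/ml together with 80 ng/ml of IL-4, CpG at 2 µM and LPS at 25 µg/ml, all in medium made for embryonic stem cells and renewed on day 3, and the labels leave unclear if the CpG and LPS cultures received IL-4 as well. GC B cells are the dividing, mutating B cells of an immune response. What a letter stands for, and whether cells of several mice were pooled, is not in the labels. The p-values therefore reflect only how far libraries of a group lay apart, which may be technical.

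Complex I takes electrons from NADH, complex II from succinate, and both pass them to ubiquinone. Complex III hands them on to cytochrome c and complex IV to oxygen, while complexes I, III and IV pump protons that complex V, the ATP synthase, uses to make ATP. All except complex II also contain subunits made inside the mitochondrion from its own DNA, and the 13 genes for those were listed at 0 in every library, so only the nuclear share of each complex could be followed. Resting lymphocytes are known to have few mitochondria and to build more of them when they are activated.

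Promoters were read for 68 of the 84 protein-coding symbols, those found in RefSeq's table for GRCm38.p6, as 300 bases each, 250 before the gene's start and 50 after it. Words known for nuclear respiratory genes were searched on both strands. GCATGCGC, the core of the NRF1 site, was in 14.7% of the members' promoters and in 3.05% of all 27025 promoters. CCGGAAG, bound by ETS factors such as GABP (NRF2), was in 23.5% of the members' promoters and in 9.93% of all. AAGATGGCG, the core of the YY1 site, was in 10.3% and 1.64%. At least 1 of these 3 words was in 27 members (39.7%) and in 13.6% of all promoters. AAGGTCA, a word bound by oestrogen-related receptors, was in 11.8% of the members' promoters and 5.38% of all, the E-box CACGTG in 8.82% and 8.09%, and CCAAT in 44.1% and 41.1%. Each kind of word was counted on its own, and an NRF1 word can overlap its own reverse complement. The promoters of 6 members held words of 2 of the 3 kinds, the most seen. Of the 6, 4 are shown because they are described further on, Cox6a1 by its share of the Cox6a sum and the others by their levels. Capitals mark the NRF1 and ETS words on either strand, and each sequence is written 5′ to 3′ in the direction of the gene. They lie at chr5:108434350-108434649 on the minus strand (Atp5k), chr4:140961021-140961320 on the plus strand (Sdhb), chr10:80406772-80407071 on the minus strand (Uqcr11) and chr5:115348909-115349208 on the minus strand (Cox6a1).
Atp5k: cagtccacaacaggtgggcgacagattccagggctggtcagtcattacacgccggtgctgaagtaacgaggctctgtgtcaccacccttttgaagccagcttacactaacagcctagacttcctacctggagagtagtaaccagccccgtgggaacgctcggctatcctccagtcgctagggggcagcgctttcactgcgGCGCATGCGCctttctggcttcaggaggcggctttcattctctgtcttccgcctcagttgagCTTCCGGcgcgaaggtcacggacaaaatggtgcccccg
Sdhb: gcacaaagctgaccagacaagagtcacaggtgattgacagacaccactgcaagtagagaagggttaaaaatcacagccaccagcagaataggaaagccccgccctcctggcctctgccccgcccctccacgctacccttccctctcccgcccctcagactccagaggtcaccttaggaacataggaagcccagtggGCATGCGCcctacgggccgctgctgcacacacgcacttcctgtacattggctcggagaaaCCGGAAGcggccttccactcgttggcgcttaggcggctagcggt
Uqcr11: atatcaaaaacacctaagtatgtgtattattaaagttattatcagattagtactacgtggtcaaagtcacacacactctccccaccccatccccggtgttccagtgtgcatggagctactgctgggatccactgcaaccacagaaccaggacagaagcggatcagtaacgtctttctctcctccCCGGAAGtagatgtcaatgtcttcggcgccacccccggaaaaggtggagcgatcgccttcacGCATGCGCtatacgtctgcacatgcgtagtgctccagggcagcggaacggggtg
Cox6a1: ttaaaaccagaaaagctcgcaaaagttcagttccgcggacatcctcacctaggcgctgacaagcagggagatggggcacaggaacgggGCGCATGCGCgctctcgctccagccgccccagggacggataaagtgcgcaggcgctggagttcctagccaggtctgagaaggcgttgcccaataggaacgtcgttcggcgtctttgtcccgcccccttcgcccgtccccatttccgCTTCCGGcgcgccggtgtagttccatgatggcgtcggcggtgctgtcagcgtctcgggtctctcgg
In Atp5k and in Cox6a1 the run GCGCATGCGC reads the same on both strands and so holds the NRF1 word once on each, while Sdhb and Uqcr11 hold it once. A word in a promoter is a description of these letters and not a shown binding site.

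Libraries held 25397624 to 36272197 counts, and values are CPM, counts per 1000000 counts of the TMM-adjusted library total. The activated libraries were closer to one another by letter than by stimulus. The chi-square of their counts per degree of freedom ran from 8.70 to 30.9 between libraries of the same letter and different stimulus (9 pairs) and from 92.4 to 211 between libraries of the same stimulus and different letter (9 pairs). Naive library B stood apart, at 281 from naive A and 331 from naive C, against 74.9 between A and C, and had 11523 genes detected, against 13920 in naive A and 18866 in naive C. The 6 B cell markers summed to 4637 to 5977 CPM in activated, 7928 to 8858 CPM in GC and 10360 to 13210 CPM in naive libraries. The 5 GC markers summed to 484 to 1085 CPM in activated, 1704 to 1890 CPM in GC and 71.3 to 129 CPM in naive libraries. The 5 naive follicular markers summed to 497 to 1437 CPM in activated, 100.4 to 122 CPM in GC and 6380.0 to 7463 CPM in naive libraries. The 4 plasma cell markers summed to 847 to 4458 CPM in activated, 1421 to 1803 CPM in GC and 122 to 139 CPM in naive libraries, so they moved with both comparisons against naive cells reported below, as the GC and follicular markers did, and their part in those was not tested. Markers of T cells summed to at most 7.86 CPM in any library, those of NK cells to 1.81, of megakaryocytes to 11.7, of neutrophils to 15.4 and of myeloid cells to 26.1. The 6 erythroid genes summed to at most 0.554 CPM in activated and 7.41 CPM in GC libraries, and to 305 CPM in naive B, 29.2 CPM in naive A and 3.29 CPM in naive C. The stromal list, whose reads came nearly all from Pecam1, a gene B cells also express, summed to 5.71 to 20.9 CPM in activated, 35.6 to 44.0 CPM in GC and 274 to 353 CPM in naive libraries.

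Summed over the 5 complexes, the subunits took a larger share of the RNA in GC and in activated cells than in naive cells. The sum was 9927 ± 863 CPM in CD40-activated, 9696 ± 1117 CPM in CpG-activated, 9903 ± 1058 CPM in LPS-activated, 12320.0 ± 1033 CPM in GC and 6456 ± 1282 CPM in naive libraries (SD, n = 3 each). The 3 GC libraries lay at 11250.0 to 13320.0 CPM, above all activated libraries at 8579 to 11010.0 CPM, and these lay above all naive libraries at 5633 to 7933 CPM. The GC sum was 1.91 times the naive sum, and 2.15 times that of naive A and C alone. By complex the GC sum over the naive sum was 1.73 for complex I, 1.53 for complex II, 1.95 for complexes III and IV, and 2.07 for complex V. In activated cells the sums were 1.5 to 1.54 times the naive sum and 0.787 to 0.806 times the GC sum. These are shares of each library's counts, and fewer cells of a type and less RNA per cell cannot be told apart in them.

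**Figure D1:**
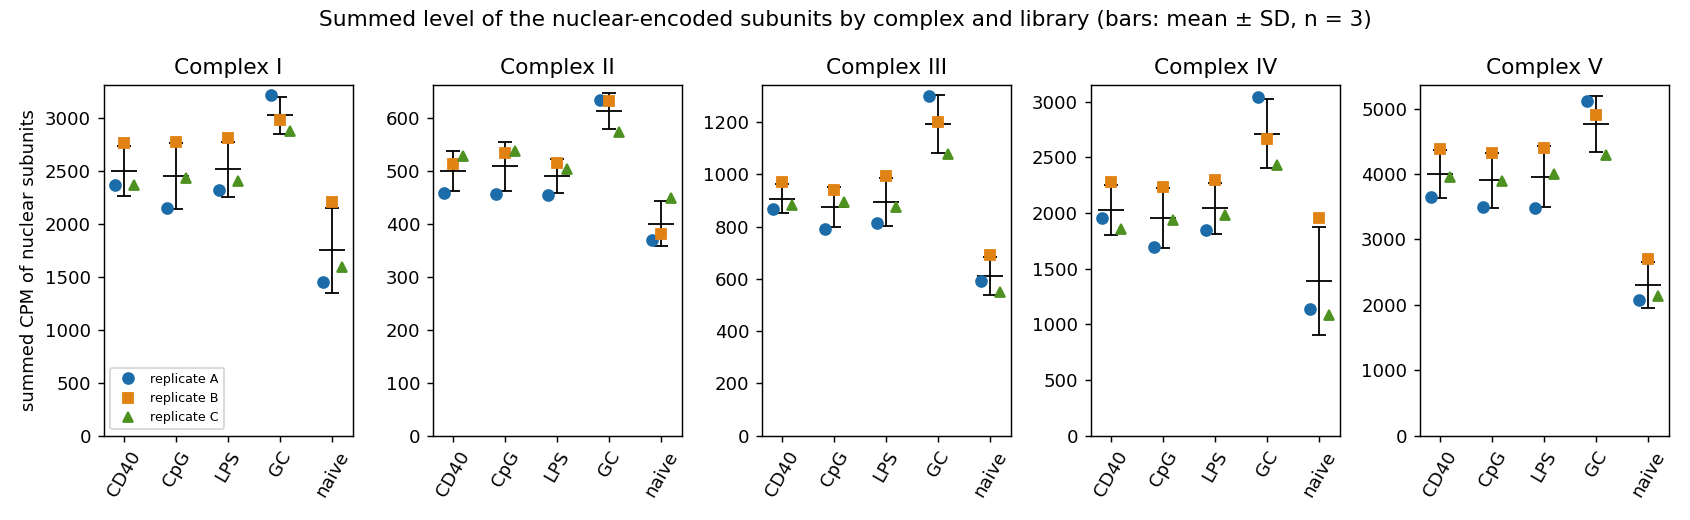
Summed levels of the nuclear-encoded subunits of complexes I to V in CPM, one point per library marked by its letter, with the mean and SD of the 3 libraries of each group. The GC mean is the highest of each complex, and naive B lies above the other naive libraries in complexes I, III, IV and V.

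Per kilobase of transcript the levels spanned a wide range within each complex. The highest were Atp5b, the catalytic beta subunit of the ATP synthase, at 525 CPM per kb over all libraries, Cox4i1, a regulatory subunit of complex IV, at 523, Uqcrh, the hinge protein of complex III, at 352, Ndufa1, a small membrane subunit of complex I, at 157.0, and Sdhb, the iron-sulphur subunit of complex II, at 115, each the highest of its own complex. The median of all members was 87.2 CPM per kb. Members were short, with a median transcript of 755 bases among the 85 protein-coding IDs.

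In GC B cells set against naive B cells, 58 of the 84 members tested were higher and 0 were lower, where 17.9% of the 17144 genes tested were higher and 16.5% lower (quasi-likelihood test of edgeR, Benjamini-Hochberg adjusted p under 0.05). At an unadjusted p under 0.05, 0 members were lower either, and DESeq2 called 60 higher and 0 lower. The call was at least 2-fold for 40 members, where 12.8% of all genes had such a call. The members' median log2 change was 1.00, against 0.00 over all genes tested, and for 63 of the 84 members the GC libraries all lay above the naive ones, as they did for 25.3% of all genes tested. The calls covered 23 of 35 members in complex I, 2 of 4 in complex II, 7 of 8 in complex III, 12 of 17 in complex IV and 13 of 16 in complex V, and 1 pseudogene (Cox6c2). Those of complex IV include Cox4i2 and Ndufa4l2, which had 0 counts in all naive libraries and so could only be higher. Cox6a2, with 0 counts in both groups, was among the 17 but could not be called.

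Within complex I, 5 of 7 core and 18 of 28 accessory subunits were higher in GC cells. Ndufa12, an accessory subunit of the matrix arm, had 99.4, 94.0 and 87.6 CPM in GC libraries A, B and C, against 25.0, 22.2 and 27.8 CPM in naive libraries. No GC library came near a naive one, and the log2 change was 1.90 (SE 0.16, edgeR adjusted p = 6.65e-07). In complex III, Uqcrb, a small subunit beside the ubiquinone pocket, had 98.2, 64.8 and 80.3 CPM in GC libraries, against 29.9, 10.3 and 26.6 CPM in naive libraries. GC libraries were all above, with naive B the lowest, and the log2 change was 1.87 (SE 0.30, edgeR adjusted p = 0.000229). In complex IV, Cox6b1, a subunit that faces the intermembrane space, had 301, 257 and 237 CPM in GC libraries, against 73.9, 76.5 and 77.1 CPM in naive libraries. The groups were far apart, with a log2 change of 1.80 (SE 0.14, edgeR adjusted p = 2.84e-07).

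In complex V all 4 peripheral stalk subunits, all 3 genes for the c ring and both F1 head subunits were higher in GC cells, but 1 of 3 central stalk subunits was. The others, Atp5d and Atp5e, were 2.22 and 1.95 times as high in naive B as in the mean of naive A and C. For Atp5c1, the stalk subunit that passed, this was 1.35 times. Members outside the central stalk passed with ratios as high, such as Atp5k at 2.06 and Cox4i1 at 2.07 times. The part of naive B was not tested. Atp5f1, subunit b of the peripheral stalk, had 436, 396 and 394 CPM in GC libraries, against 119, 114 and 145 CPM in naive libraries. That is a log2 change of 1.70 (SE 0.15, edgeR adjusted p = 8.25e-07). Atp5k, subunit e of the membrane part, whose promoter is shown above, had 90.7, 58.7 and 60.1 CPM in GC libraries, against 14.5, 31.9 and 16.5 CPM in naive libraries. The GC libraries were all above the naive ones, with GC A and naive B the highest of their groups, and the log2 change was 1.74 (SE 0.27, edgeR adjusted p = 0.000186). Ndufa4l2, a paralogue of the complex IV subunit Ndufa4 known from hypoxia, had 60 counts in GC libraries and 0 in naive libraries, which gives at least 19.5-fold higher against a floor of 3 counts over the group. Its exons overlap Shmt2 on the other strand, at 197 to 206 CPM in GC and 65.0 to 97.0 CPM in naive libraries, and whether counting used the strand is not given in the sources used here.

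The members without a call in GC cells included Ndufs7, an iron-sulphur core subunit, and Cox7a2l, a factor that joins complexes III and IV. Ndufs7 had 95.3, 86.7 and 78.2 CPM in GC libraries, against 81.9, 104 and 77.9 CPM in naive libraries, and the ranges overlapped (log2 -0.02, SE 0.18). The lowest change among protein-coding members was that of Ndufa3, with a log2 of -0.50 (SE 0.24, edgeR adjusted p = 0.121).

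**Figure D2:**
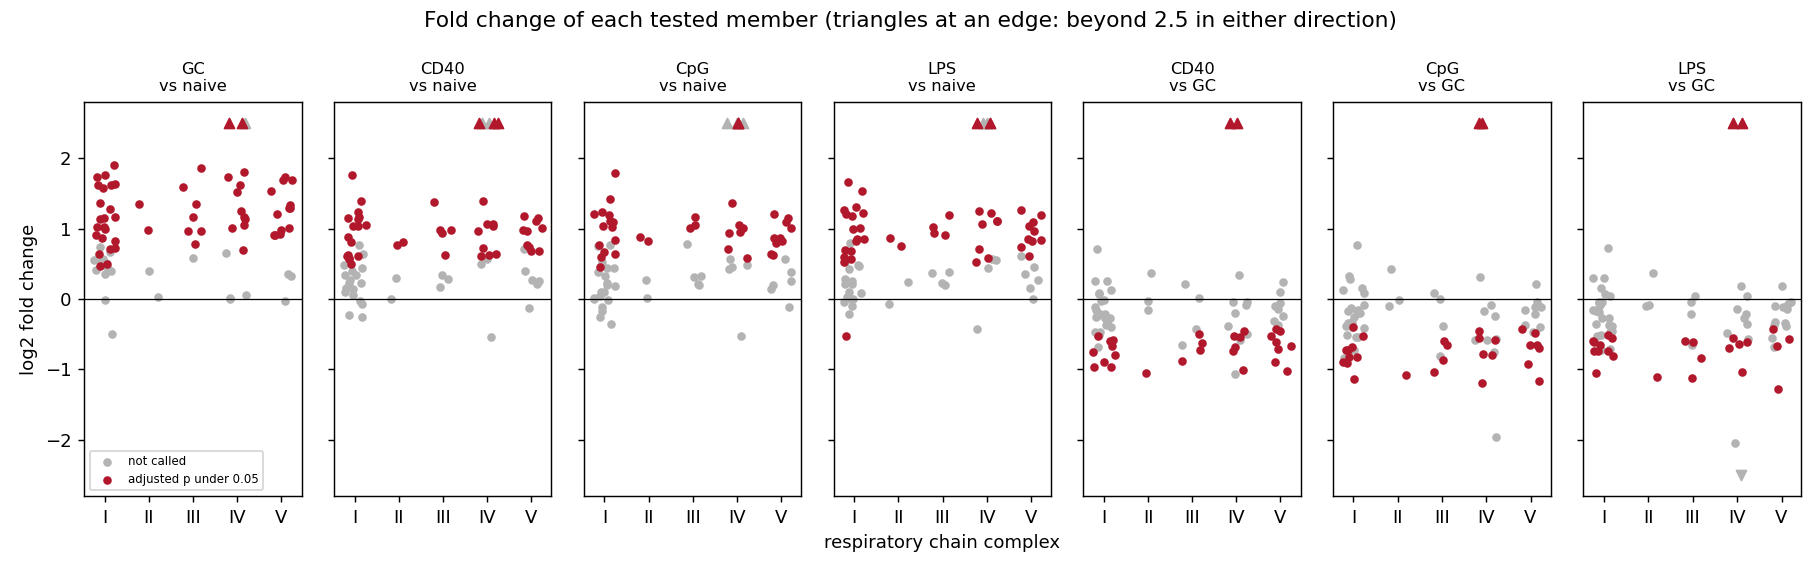
Log2 changes of each tested member by complex, for GC against naive and for each activated group against naive and against GC, where red points passed the adjusted threshold of 0.05, and triangles at an edge stand for values beyond 2.5, which include fitted changes against a group with 0 counts. Most red points lie above 0 against naive and below 0 against GC.

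In naive B cells cultured with a stimulus, about as many members were higher than in naive cells under each of the 3 stimuli. With anti-CD40, 47 of 84 were higher and 0 lower (all genes 19.8% and 14.3%). With CpG, 40 were higher and 0 lower (all genes 19.7% and 14%), and with LPS 44 were higher and 1 lower (all genes 19.5% and 14.2%). Cox6a2, Cox4i2 and Ndufa4l2, with 0 counts in all naive libraries, could not be called lower. The median log2 changes of the members were 0.67, 0.66 and 0.70, against 0.17, 0.18 and 0.18 over all genes. At an unadjusted p under 0.05, edgeR had 0 members lower with anti-CD40 or CpG, and DESeq2 called 0. At least 2-fold calls numbered 22 with anti-CD40, 22 with CpG and 23 with LPS, where 14.8%, 14.7% and 14.7% of all genes had one. Fitted on the 6 libraries of each comparison alone, the counts of higher members were 24, 24 and 25. The member lower with LPS was Ndufs7, with 55.0, 66.1 and 62.5 CPM in LPS-activated libraries, against 81.9, 104 and 77.9 CPM in naive libraries. Its call (log2 -0.52, SE 0.18, edgeR adjusted p = 0.0401) was lost under 8 of 11 alternatives.

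Ndufb6, an accessory subunit of complex I's membrane arm, was among the largest rises. It had 25.0, 30.2 and 32.5 CPM in CD40-activated libraries A, B and C, 22.3, 34.0 and 33.0 CPM in CpG-activated libraries and 26.5, 27.6 and 28.0 CPM in LPS-activated libraries, against 9.53, 5.44 and 10.9 CPM in naive libraries. Every activated library was above every naive one, and the log2 changes were 1.76, 1.78 and 1.66 (SE 0.26 each, edgeR adjusted p = 0.000148, 0.000132 and 0.000228). Uqcrq, a small subunit of complex III, had 101, 101 and 116 CPM in CD40-activated, 78.9, 96.8 and 99.9 CPM in CpG-activated and 91.9, 95.4 and 94.5 CPM in LPS-activated libraries, against 47.7, 43.8 and 31.1 CPM in naive libraries. Its log2 changes were 1.38, 1.17 and 1.20 (SE 0.16 each). Atp5f1 had 255 to 333 CPM over the 9 activated libraries with a median of 307, against 114 to 145 CPM in naive libraries, with log2 changes of 1.17, 1.21 and 1.26 (SE 0.15 each).

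In naive library B the members lay apart from the other naive libraries. Of 76 members with at least 1 CPM in every naive library, 57 were highest in naive B, 11 were lowest there and 8 lay between. The median log2 ratio of naive B over the mean of naive A and C was 0.54 for the members and -0.05 over 9953 genes. It was 0.70 for the 30 members with transcripts up to 700 bases and 0.07 for the 17 members over 1500 bases. Ndufa2, a small accessory subunit, had 127 CPM in naive B, against 44.9 CPM in naive A and 44.3 CPM in naive C. Uqcrc2, a core protein of complex III, had 45.3 CPM in naive B, against 107 CPM in naive A and 98.2 CPM in naive C. Erythroid RNA, genes detected and transcript length moved with this library, and their part in the levels was not tested. Without naive B, 69 members were higher in GC cells, 60 with anti-CD40, 60 with CpG and 63 with LPS, and median log2 changes were 1.23, 0.90, 0.88 and 0.89.

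Set against GC B cells, the activated cells had lower levels of many subunits. With anti-CD40, 28 of 84 members were lower and 2 higher (all genes 12.4% and 15.9%). With CpG, 28 were lower and 2 higher (all genes 12.6% and 16.4%), and with LPS 24 were lower and 2 higher (all genes 12.2% and 15.8%). The median log2 changes were -0.39, -0.42 and -0.37, against 0.05, 0.05 and 0.06 over all genes. In each comparison the 2 higher members were Cox6a2 and Cox6b2, of which Cox6a2 had 0 counts in all GC libraries and could only be higher. These comparisons share the GC libraries. Counts of lower members fell to 16 without CD40 A, 18 without CD40 C and 12 without GC A in the anti-CD40 comparison, to 17 without CpG A or GC A in that of CpG, and to 13 without LPS A and 15 without GC A in that of LPS.

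Ndufa4, a complex IV subunit once listed in complex I, had 68.3 to 98.4 CPM over the activated libraries with a median of 89.4, against 206, 165 and 178 CPM in GC libraries. No activated library reached a GC library, and the log2 changes were -1.01 with anti-CD40, -1.20 with CpG and -1.04 with LPS (SE 0.17 each, edgeR adjusted p = 0.000393, 9.79e-05 and 0.000318). Atp5k had 24.4 to 34.6 CPM over the activated libraries, against 90.7, 58.7 and 60.1 CPM in GC libraries, with log2 changes of -1.03, -1.16 and -1.27 (SE 0.27 each). Ndufa5, an accessory subunit of the matrix arm, had 20.2 to 34.1 CPM over the activated libraries, against 66.6, 53.5 and 56.7 CPM in GC libraries. Its log2 changes were -0.96, -1.13 and -1.05 (SE 0.21 each). Ndufb3, an accessory subunit of the membrane arm, had 37.9, 36.6 and 26.9 CPM in CD40-activated libraries, against 68.1, 62.7 and 67.2 CPM in GC libraries, a log2 change of -0.97 (SE 0.23, edgeR adjusted p = 0.00579). No CD40-activated library reached a GC library. Ndufb3 was also lower with CpG (log2 -0.91) and with LPS (log2 -0.80, SE 0.23 each, edgeR adjusted p = 0.00828 and 0.0172). Uqcr11, a small complex III subunit whose promoter is shown above, had 32.1 to 48.1 CPM over the activated libraries, against 85.6, 73.9 and 67.5 CPM in GC libraries. Its log2 changes were -1.04 with CpG and -1.12 with LPS (SE 0.23 each), and that with anti-CD40, -0.72 (SE 0.23), was lost under 6 of 11 alternatives. Uqcrb had 42.5, 43.5 and 46.1 CPM in CD40-activated libraries, against 98.2, 64.8 and 80.3 CPM in GC libraries, and its call (log2 -0.88, SE 0.29, edgeR adjusted p = 0.0363) was lost under 5 of 11. With CpG and LPS its log2 changes were -0.86 and -0.84 (SE 0.29 each, edgeR adjusted p = 0.0398 and 0.0457).

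The 4 genes of complex II differed in their patterns. Sdhb had 240.0, 237 and 222 CPM in GC libraries, against 90.9, 92.2 and 91.3 CPM in naive libraries, while the activated libraries had 99.3 to 124 CPM. The GC libraries stood far above the rest, and the log2 change was 1.35 for GC against naive (SE 0.12, edgeR adjusted p = 6.71e-07) and -1.05, -1.08 and -1.11 for the activated groups against GC (SE 0.12 each). Against naive cells the activated groups had log2 values of 0.30, 0.27 and 0.24 (SE 0.11 each, edgeR adjusted p = 0.0571, 0.0845 and 0.122), which did not pass. Sdhc, a membrane anchor, had 83.1 to 112 CPM over the activated libraries, 77.7, 77.0 and 70.5 CPM in GC libraries and 46.1, 68.8 and 56.6 CPM in naive libraries. It rose in the activated groups (log2 0.76, 0.82 and 0.76, SE 0.17 each), and its GC value of 0.39 (SE 0.17, edgeR adjusted p = 0.0945) did not pass. Sdhd, the other anchor, had 87.7 to 104 CPM over the activated libraries and 101 to 105 CPM in GC libraries, against 28.2, 69.7 and 59.0 CPM in naive libraries. It rose in both, with log2 values of 0.82, 0.88 and 0.87 in activated groups and 0.97 in GC (SE 0.23 each). Sdha, the flavoprotein, had 180.0 to 217 CPM over the activated libraries, 213, 218 and 178 CPM in GC libraries and 205, 151 and 243 CPM in naive libraries, and the groups overlapped.

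**Figure D3:**
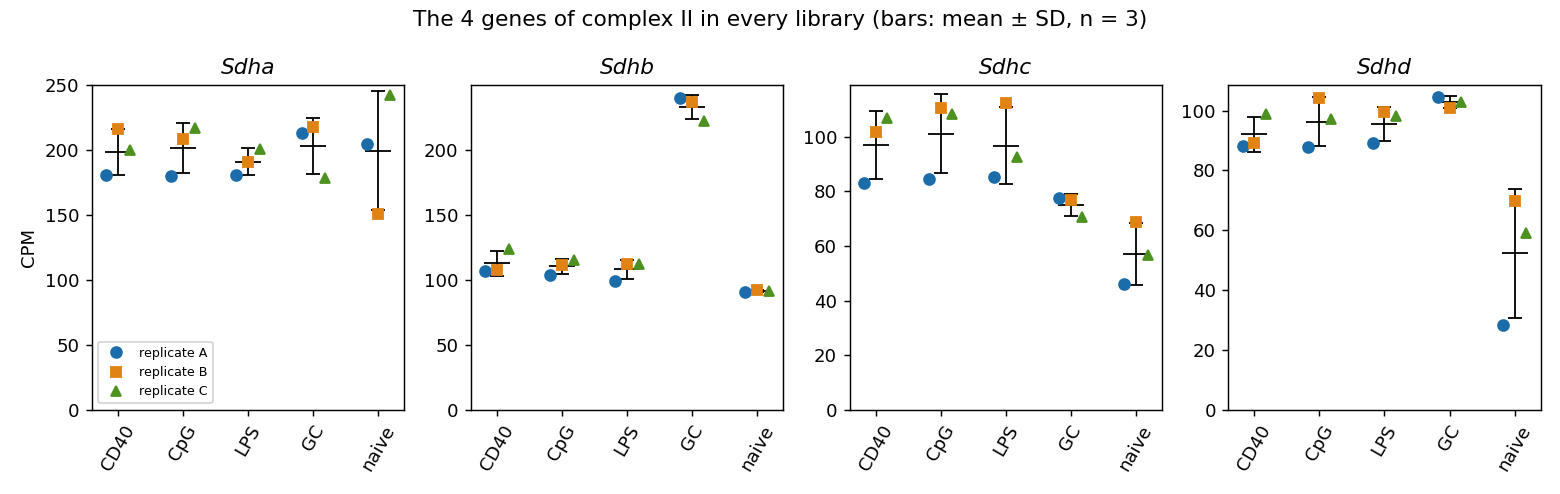
Levels of Sdha, Sdhb, Sdhc and Sdhd in CPM, one point per library marked by its letter, with the mean and SD of the 3 libraries of each group. GC libraries stand above all others for Sdhb, while for Sdhc the activated libraries are above the GC libraries.

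Several subunits are made from more than one gene, and the isoforms known from muscle, testis or lung were measured beside their common forms. Cox6a2, the heart and skeletal muscle form of subunit VIa, had 0 counts in all GC and naive libraries. It had 16.8, 1.53 and 0.697 CPM in CD40-activated libraries A, B and C, 9.97, 4.14 and 1.30 CPM in CpG-activated libraries and 17.6, 1.38 and 0.388 CPM in LPS-activated libraries. Activated library A was the highest of each stimulus and C the lowest. Against a floor of 3 counts over the group, Cox6a2 was at least 199.6-fold higher with anti-CD40, 162-fold with CpG and 204-fold with LPS than in naive cells, and at least 207.5-fold, 169-fold and 212-fold higher than in GC cells. Library A held 540 of the 606 counts with anti-CD40, 294 of 448 with CpG and 534 of 582 with LPS. Without it the bounds over naive cells were 35.1-fold, 85.9-fold and 27.9-fold, and those over GC cells 36.5-fold, 89.3-fold and 29.0-fold. Itgad, which overlaps it on the other strand, had at most 0.318 CPM in activated libraries. Cox6b2, the testis form of subunit VIb, had 3.41 to 16.2 CPM in activated libraries, 0.891, 0.655 and 1.85 CPM in GC libraries and 1.81, 0 and 1.53 CPM in naive libraries. Its calls against naive cells were lost under 4 of 11 alternatives, and those against GC cells under 6 or 7 of 11.

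Shares of each set were taken per kilobase. Cox6a1 was 93.7% of the Cox6a sum in activated letter A, 99.1% in letter B and 99.7% in letter C, and all of it in GC and naive libraries. Cox6b2 was 9.43% of its set in activated letter A, 5.42% in letter B and 3.24% in letter C, with 0.509% in GC and 1.67% in naive libraries. Cox4i2, the lung form known from hypoxia, had 1.72, 1.58 and 0 CPM in GC libraries and 0 CPM in naive libraries, at least 34.7-fold higher in GC (25.0-fold without GC A and 52.1-fold without GC C), a call lost under 5 of 10 alternatives. Cox4i1 had 519, 485 and 389 CPM in GC libraries, against 207, 439 and 217 CPM in naive libraries (log2 0.69, SE 0.24, edgeR adjusted p = 0.0373). Within the Cox7a set Cox7a2l was 61.9% ± 3.97 with anti-CD40, 63.3% ± 4.07 with CpG, 64.8% ± 5.57 with LPS, 63.6% ± 0.116 in GC and 78.4% ± 4.87 in naive libraries (SD, n = 3 each), and Cox7a2, the common form of the subunit itself, was 36.7%, 35.6%, 33.9%, 35.1% and 21.5% in the same order. Cox7a1 had 2.51, 1.66 and 2.57 CPM in GC libraries, against 0, 0 and 0.451 CPM in naive libraries, which did not pass (edgeR adjusted p = 0.0504). Cox7b rose in GC cells (log2 1.51, SE 0.16) and in all activated groups (log2 1.06, 1.06 and 1.25, SE 0.16 each), and Cox8a, the only Cox8 gene with counts, did not pass in any of them (log2 0.65 in GC and 0.57, 0.48 and 0.44 in activated groups, SE 0.33 each). In naive B, Cox8a was at 2.8 times the mean of naive A and C. Atp5s had 11.9, 11.7 and 17.2 CPM in GC libraries, against 4.45, 10.3 and 10.9 CPM in naive libraries, and did not pass either (edgeR adjusted p = 0.152).

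The 3 genes of the c ring, which encode the same mature protein, differed in share. Atp5g3 was 54.5% ± 2.94 with anti-CD40, 51.9% ± 4.65 with CpG, 53.5% ± 2.60 with LPS, 57.4% ± 0.825 in GC and 49.95% ± 8.30 in naive libraries (SD, n = 3 each), while Atp5g2 was at 37.1% to 43.6% and Atp5g1 at 5.44% to 7.12% over the groups. These shares depend on the transcript lengths used, 2666 bases for Atp5g1, 586 for Atp5g2 and 718 for Atp5g3. Over all libraries their counts were 47882, 66497 and 111247. Other genes that share a near-identical stretch of at least 100 bases with Atp5g1 held counts at 502% of its own, so its share is less certain. Those are counts of the whole genes, not of the shared stretch. By letter, Atp5g2 was 39.0% in A, 45.0% in B and 36.2% in C. For letter B against C, Atp5g2 was higher (log2 0.49, SE 0.07) and Atp5g1 lower (log2 -0.36, SE 0.07).

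Between stimuli, no member passed. With 84 members tested in each of the 3 pairs, edgeR called 0, as it did among all genes (0% higher and 0% lower), no member was under an unadjusted p of 0.05, and DESeq2 called 0. With the letter as a block, 0 of 82 members passed, and 4 (anti-CD40 against CpG), 11 (anti-CD40 against LPS) and 6 (CpG against LPS) were under an unadjusted p of 0.05, with 27, 44 and 45 of 15727 genes passing. For a member of median SE, the 95% interval then reached 0.16 log2 units to either side of its value, so these libraries do not settle smaller differences between stimuli.

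Between letters, many members of the activated libraries passed. Each letter has 1 library of each stimulus, so the spread in these tests is that between stimuli within a letter. Their SEs and p-values do not measure a spread between animals. Summed over the 5 complexes, letter A had 8926 ± 356 CPM, letter B 10910.0 ± 101 CPM and letter C 9687 ± 101 CPM (SD, n = 3 each, 1 library per stimulus). In a fit of the 9 activated libraries with stimulus as a term, letter A against B had 3 of 82 members higher and 44 lower (all genes 16.6% and 14.5%). Letter A against C had 4 higher and 22 lower (all genes 11.9% and 11.5%), and letter B against C had 29 higher and 3 lower (all genes 17.3% and 17.5%). The median log2 differences were -0.27, -0.14 and 0.13, against 0.01, 0.02 and 0.02 over all genes. The 22 lower in A against C fell to 10 without CpG A, 12 without CpG C and 14 without LPS A, and the 3 lower in B against C became 1 without CD40 B, LPS B or LPS C and 5 without CD40 C. The sum of 4 plasma cell markers moved with the letters too, at 1362 to 1488 CPM in letter A, 847 to 884 CPM in letter B and 2955 to 4458 CPM in letter C. So did the sum of 5 myeloid markers, at 21.4 to 26.1, 3.33 to 5.76 and 4.95 to 6.25 CPM. Most of it in letter A came from Adgre1, at 19.2, 23.7 and 21.2 CPM with anti-CD40, CpG and LPS. Itgam was at 1.52 to 2.38 CPM in letter A, and Lyz2, Csf1r and Cd14 were each at most 0.33 CPM there. Naive follicular markers were at 1372 to 1437 CPM in letter A, 585 to 643 CPM in letter B and 497 to 534 CPM in letter C, and GC markers at 996 to 1085, 603 to 698 and 484 to 627 CPM. Both were highest in letter A, where the subunits were lowest. Their part in these differences was not tested.

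Ndufv2, an iron-sulphur core subunit of complex I, had 122, 106 and 121 CPM in letter A with anti-CD40, CpG and LPS, against 194, 191 and 223 CPM in letter B and 123, 148 and 140.0 CPM in letter C. All letter B libraries were above all others, with a log2 difference of -0.80 for A against B (SE 0.07, edgeR adjusted p = 3.33e-09) and 0.56 for B against C (SE 0.07). Ndufv3, another subunit of the same arm, had 112, 104 and 106 CPM in letter A, against 157.0, 171 and 161 CPM in letter B and 96.4, 101 and 102 CPM in letter C. Its log2 difference was -0.60 for A against B (SE 0.07) and 0.70 for B against C (SE 0.07). Ndufb11, an accessory subunit, went the other way, at 174, 167 and 169 CPM in letter A, against 127, 134 and 125 CPM in letter B and 121, 135 and 126 CPM in letter C (log2 0.41 and 0.42 for A against B and C, SE 0.06 each). Rbm10, which overlaps it on the other strand, was at 167 to 185 CPM in letter A, 124 to 134 CPM in letter B and 145 to 172 CPM in letter C. Ndufb8, also an accessory subunit, had 31.1, 30.9 and 30.5 CPM in letter A, against 33.9, 41.3 and 35.1 CPM in letter B and 44.9, 43.8 and 42.1 CPM in letter C, with a log2 difference of -0.50 for A against C (SE 0.10, edgeR adjusted p = 0.000469).

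The tissue-restricted isoforms had the widest gaps between letters. Cox6a2 was higher in A than in B by a log2 of 2.84 (SE 0.39, edgeR adjusted p = 1.18e-05) and higher in A than in C by 4.37 (SE 0.43, edgeR adjusted p = 1.87e-07). Its difference of B against C, 1.54 (SE 0.42), was lost under 3 of 10 alternatives. Cox6b2 was higher in A than in C by a log2 of 1.53 (SE 0.23, edgeR adjusted p = 1.04e-05). Cox7a1, the muscle form of subunit VIIa, had 1.74, 0.271 and 1.15 CPM in letter A with anti-CD40, CpG and LPS, against 2.04, 3.77 and 3.16 CPM in letter B and 1.39, 0.464 and 0.970 CPM in letter C. Letter B was the highest under each stimulus, with log2 differences of -1.80 for A against B (SE 0.61) and 1.89 for B against C (SE 0.60), lost under 5 and 2 of 10 alternatives. Cox4i2 had 0.255, 0.148 and 0 CPM in letter B, against 1.01, 1.61 and 0.776 CPM in letter C, a log2 difference of -3.60 (SE 1.26) that was lost under 5 of 10 alternatives.

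**Figure D4:**
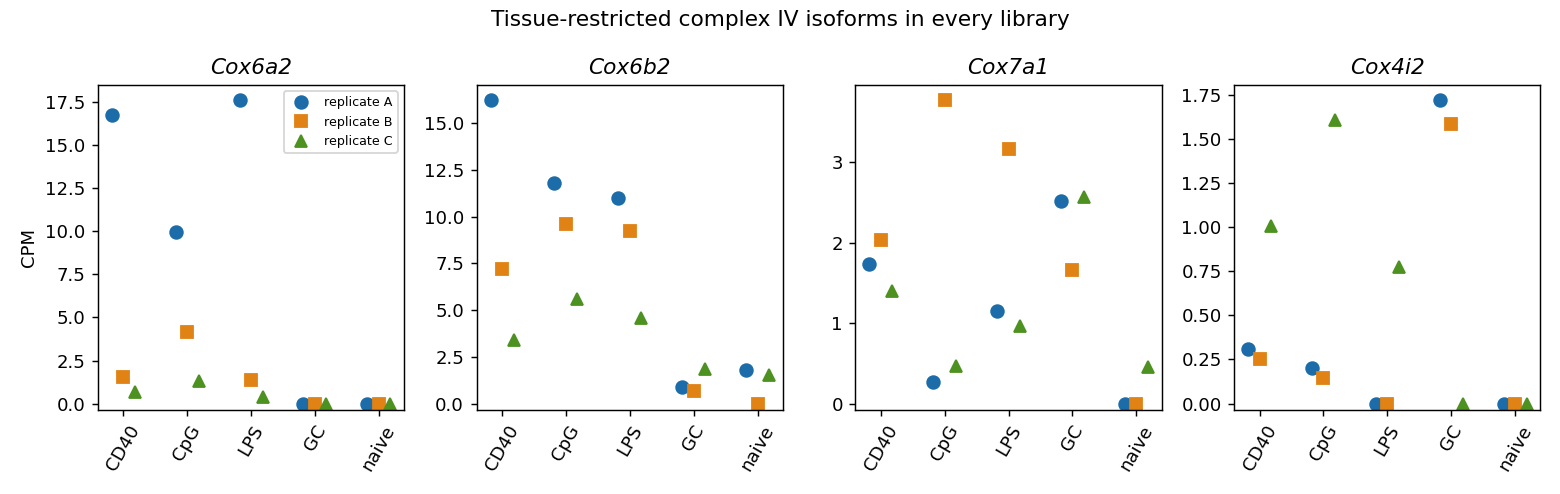
Levels of the tissue-restricted isoforms Cox6a2, Cox6b2, Cox7a1 and Cox4i2 in CPM, one point per library marked by its letter. Cox6a2 is at 0 in all GC and naive libraries and highest in library A of each stimulus.

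Across the 15 libraries the members' profiles were alike but not uniform. Against the mean profile of the members, 45 of 84 had a Pearson r over 0.8, 27 an r between 0.5 and 0.8, and 12 an r up to 0.5, among them Ndufa3, Ndufs7, Sdha, Cox7a2l, Cox6a2 and Cox6b2. These values describe libraries that share their groups and normalisation. Of 9034 other genes ranked the same way over the 15 libraries, those most like the mean profile were Ccdc34 (r = 0.98), Siva1 (0.98), Txn1 (0.97), Cks2 (0.97) and Txnl1 (0.97).

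**Figure D5:**
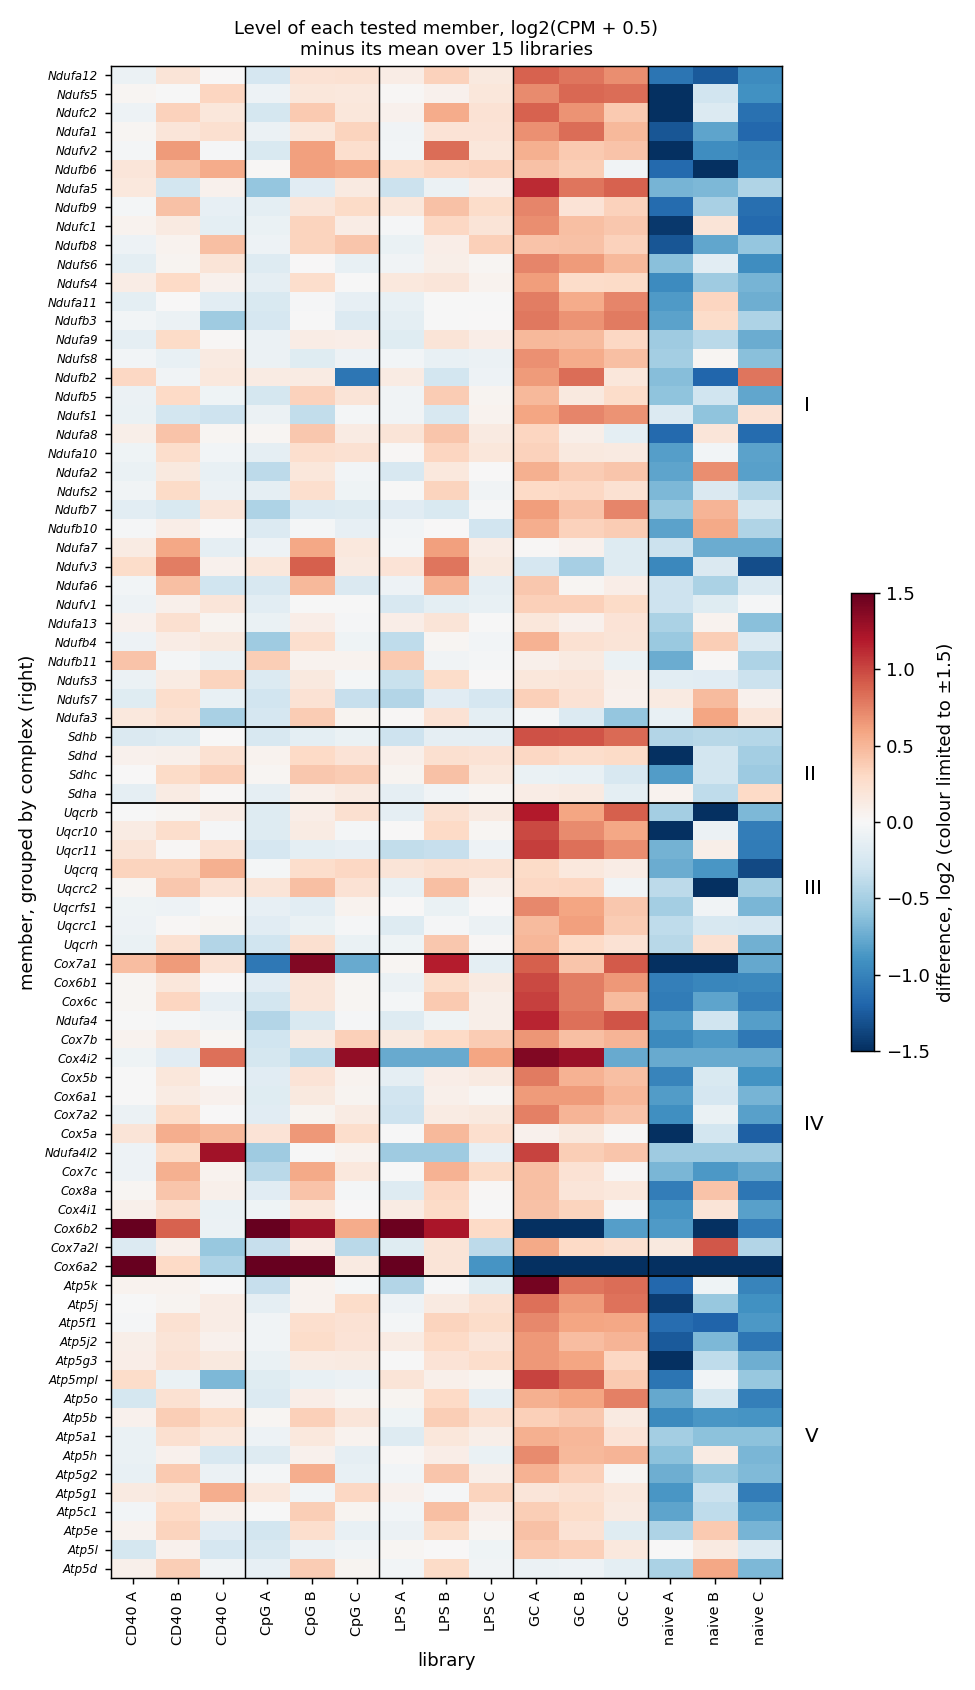
Levels of the tested members of complexes I to V in each library as log2(CPM + 0.5) minus the member's mean, grouped by complex and ordered within it by the difference between GC and naive libraries. Most rows are high in GC and low in naive libraries, and some at the bottom of a complex, such as Ndufs7 and Sdha, are not.

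Genes around the respiratory chain, from lists of other mitochondrial functions, were counted the same way, beside the shares of all genes that passed against naive cells, 17.9% upward and 16.5% downward in GC cells and 19.5% to 19.8% upward and 14% to 14.3% downward in activated cells. All 3 genes for cytochrome c and subunits outside the naming rule (Cycs, Cyc1 and Ndufab1) were higher in GC than in naive cells, with Cycs, the somatic cytochrome c, at 130 CPM in GC and 39.7 CPM in naive libraries (log2 1.71, SE 0.17, edgeR adjusted p = 2.12e-06). Of the citric acid cycle genes, 11 of 16 were higher in GC and 9 or 10 of 16 in each activated group than in naive cells. Of the protein import genes, 12 of 18 were higher in GC and 8 of 18 in each activated group. Assembly factors were counted by complex. In GC against naive cells, 4 of 15 factors for complex I, 1 of 4 for complex II, 0 of 6 for complex III, 4 of 19 for complex IV and 1 of 4 for complex V were higher, and 1 for complex III (Lyrm7) was lower. The counts for complexes I and IV are near the share of all genes that were higher, and the lists for the others are too short to set against it. Sdhaf2, which attaches the flavin to Sdha, had 165 CPM in GC and 86.8 CPM in naive libraries (log2 0.92, SE 0.18), and 88.5 CPM with anti-CD40. Sco1, a copper chaperone of complex IV, had 66.1 CPM with anti-CD40, against 12.3 CPM in GC and 15.1 CPM in naive libraries (log2 2.42 over GC, SE 0.26, and 2.13 over naive, SE 0.25). Tmem70, an assembly factor of complex V, had 49.4 CPM with anti-CD40, against 24.1 CPM in GC and 22.6 CPM in naive libraries (log2 1.04, SE 0.23, and 1.13, SE 0.23). Of 9 mitochondrial chaperones and proteases, 2 were higher in GC and 4 in each activated group than in naive cells, the count in GC again near the share of all genes. Hspd1, the chaperonin HSP60, was at 297 CPM with anti-CD40, 276 CPM in GC and 166 CPM in naive libraries. Of 16 regulators of mitochondrial biogenesis, GC cells had 3 above and 2 below naive cells, close to the shares over all genes. Of the activated cells, those with anti-CD40 had 0 above and 5 below naive cells, those with CpG 0 and 3, and those with LPS 0 and 5. Ppargc1b, the coactivator PGC-1 beta, had 3.48 CPM with anti-CD40, against 10.2 CPM in naive libraries (log2 -1.54, SE 0.53, edgeR adjusted p = 0.0374). It had 2.24, 2.88 and 3.31 CPM in CpG-activated libraries A, B and C and 1.55, 4.135 and 2.77 CPM in LPS-activated libraries. For Sdhaf2, Sco1, Tmem70 and Hspd1, levels of activated cells are given with anti-CD40 only. Without a block, no gene passed between stimuli.

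Some members share near-identical stretches with other genes, and how reads that map to both were counted is not given in the sources used here. Of the protein-coding members, 25 of 85 shared a stretch of at least 95% identity over at least 100 bases with a transcript of another gene. Whether such a gene is a copy of the member or shares only that stretch was not tested. The whole counts of these genes were a median of 3.90% of the member's own. They passed 10% for 4 members (Ndufc1, Atp5g1, Cox7a2l and Atp5l), so their levels are less certain. Exons of 26 members overlap another gene on the other strand and those of 6 on the same strand.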

How the data were processed

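RNA was measured in 15 poly(A)-selected, strand-aware libraries, 3 per group, grouped by the sample labels. Per the submitters' processing notes, reads were aligned with STAR 2.7.10a to mm10/GRCm38 and counted with featureCounts 2.0.6, and DESeq2 is also named there. The authors deposited counts, whole numbers of reads per gene. The annotation release and the handling of strand and multimapping reads are not given in the sources used here. Symbols, transcript lengths (mean over principal isoforms) and overlaps came from GENCODE M21 on GRCm38, and promoters from RefSeq. No GRCm38 protein or genome sequence beyond these promoters was used here.

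Counts were tested in R 4.3.3 with edgeR 4.0.16 (TMM, filterByExpr by group, glmQLFit robust, glmQLFTest, two-sided) on all 15 libraries without a block, with Benjamini-Hochberg adjustment over 17144 genes and a threshold of 0.05. Letters were compared in a fit of the 9 activated libraries with stimulus as a term, over 15727 genes. DESeq2 1.42.0 was an alternative, beside RLE factors, no filter, fits on the libraries compared alone, the letter as a block, no stimulus term, and each library left out. The fit was tested on simulated data. Near-identical stretches were searched with blastn 2.17.0. Totals of 25397624 to 36272197 counts leave the spread between libraries as the main limit for all but the rarest genes, and bounds against 3 counts cover counting error only, as reads carry no molecular identifiers.

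Letters pair the activated libraries, whose deviations from their group means correlated at 0.362 to 0.495 in all 9 same-letter pairs, and not the other groups (-0.0696 to 0.0752, 21 pairs). The pairing comes from the data, since the labels do not say what a letter stands for.

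Members and lists were chosen with earlier results of these data known. Named were, per comparison and complex, the called members with the largest increase and decrease among those whose groups do not overlap, the highest member per kilobase, the paralogue sets, the Sdh genes and Atp5s, for letters the 3 largest calls, and for lists the largest increase or decrease. Ndufs7, Ndufa3, Ndufa2, Uqcrc2, Ndufv3 and Ndufb11 were chosen after their values were seen.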

Additional observations from a re-analysis of the deposited data

How the results depend on the processing

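No result of a named member that passed the threshold in the main or the alternative run changed direction between them. Changes of direction in results that passed in neither were not counted. Over 465 results of named members, the side of the threshold was kept in 4643 alternative values, lost in 253 and gained in 97. The counts against naive cells were smaller when only the libraries compared were fitted, at 24 (anti-CD40), 24 (CpG) and 25 (LPS) higher, and so were the lower counts against GC cells without a filter on low counts, at 15 (anti-CD40) and 14 (LPS). The 1 member lower with LPS against naive became 0 with RLE factors, without a filter and in the fit of the libraries compared. Higher members against GC cells became 5 with anti-CD40 and 4 with CpG in the fit of the libraries compared. With the letter as a replicate block, 4 members were higher with CpG against GC cells, and the counts were 63 higher in GC, 52 with anti-CD40, 44 with CpG and 48 with LPS against naive cells. The block changed no other count by over 1.5 times. The cause of these shifts was not tested.

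Leaving out each library in turn gave 52 to 69 higher in GC, 35 to 60 with anti-CD40, 33 to 60 with CpG and 34 to 63 with LPS against naive cells, and 0 to 1 lower with each stimulus. Against GC cells it gave 1 to 2 higher and 12 to 24 lower with anti-CD40, 1 higher and 17 to 24 lower with CpG, and 1 higher and 13 to 22 lower with LPS. Between letters it gave 2 to 3 higher and 32 to 47 lower in A against B, 3 to 6 higher and 10 to 23 lower in A against C, and 21 to 28 higher and 1 to 5 lower in B against C. Members near 0 counts (Cox4i2, Cox7a1, Ndufa4l2, Cox6b2) are limited by counting as well as by the spread between 3 libraries, and lack of a call does not show equal levels.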
